A study of Mus musculus with 2 samples.

Results

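The genes of cholesterol synthesis, uptake and efflux were read on 2 Affymetrix mouse 430A 2.0 arrays of mammary tumor RNA, 1 from FVB wild-type mice fed a diet with 0.1% GW9662 and 1 from FVB wild-type mice on standard chow. GW9662 is an irreversible antagonist of the nuclear receptor PPARγ. In both groups females were injected at 5 weeks of age with 15 mg medroxyprogesterone acetate, a progestin, and then received 4 weekly doses of 1 mg of the carcinogen DMBA by gavage, and the GW9662 diet began 1 day after the last dose. RNA from 5 mice was pooled for each array, so there was 1 array per diet and no spread between mice or tumors could be measured. Differences between the diets were therefore described by size without a test, and their precision is limited by having 2 arrays. Values are given as those of the GW9662 array ("with GW9662") and the array of the chow-fed group ("in control"). The members were a fixed list of 36 genes: enzymes of sterol synthesis, regulators of SREBP2, receptors for lipoproteins, and proteins that move, esterify or export sterols. A probe set, the group of short oligonucleotides that reads a transcript, named 33 of the 36 genes and no other gene, among 12393 genes named in this way. Acat2, Insig1 and Soat1 were not analysed here.

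Cells make cholesterol from acetyl-CoA through mevalonate, farnesyl diphosphate, squalene and lanosterol, and also take it up in lipoproteins. When sterols in the endoplasmic reticulum are low, Scap escorts the transcription factor precursor SREBP2 to the Golgi, where proteolysis frees the active factor. It then switches on genes of nearly every step of synthesis together with genes of uptake. When sterols are plentiful, Insig proteins hold Scap back, and oxysterols activate LXR receptors, which switch on efflux genes such as Abca1 and Abcg1. In the mammary gland the same enzymes serve growing epithelium and fat cells, and macrophages also express efflux and apolipoprotein genes.

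Sterol synthesis enzymes mostly had modestly lower signals on the GW9662 array, whereas the SREBP2 regulators were close to level. Msmo1, a methylsterol monooxygenase of late synthesis, was the only member to reach 2-fold, at 194.5 with GW9662 and 402.7 in control, and with quantile normalization its log2 ratio was -0.96, short of 2-fold. Sc5d, Fdft1 and Lipa were between 1.56-fold and 1.93-fold lower, and none of the 33 genes was 1.5-fold higher. Signals are the linear intensities that the authors deposited, and a gene with several probe sets was represented by the brightest of them, judged by the mean of the 2 arrays. Log2 ratios are of GW9662 over control. As the only measure of error in the files, log2 ratios of different probe sets of the same gene differed with an SD of 0.36, or 1.28-fold, over 2639 genes, and this carries no variation between mice.

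**Figure D1:**
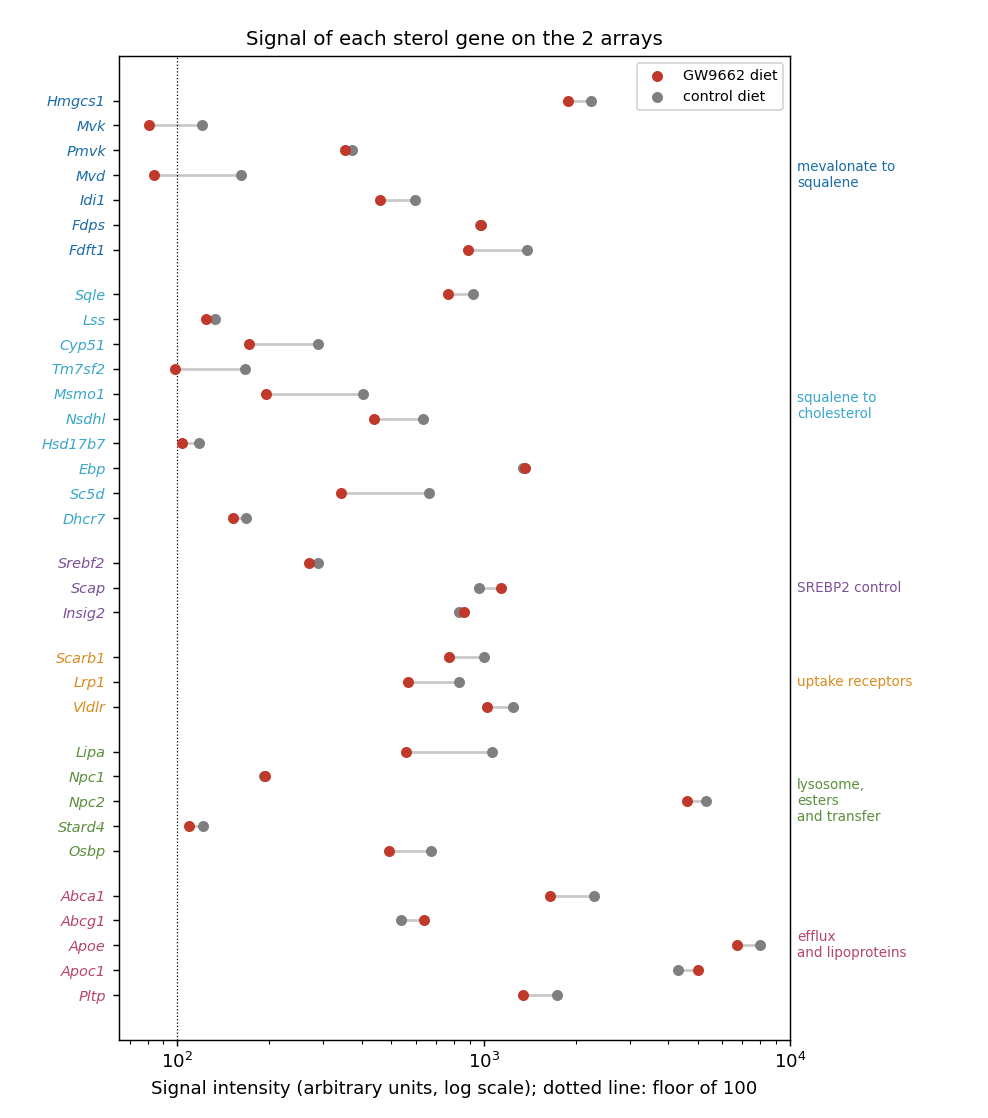
Signal of the 33 sterol genes at their brightest probe sets, on the GW9662 array (red) and the control array (gray), with signal intensity on a log scale on the x axis and genes grouped by role on the y axis. The red point lies left of the gray point for 26 of 33 genes, and the dotted line marks the floor of 100. Signals of these genes below the floor entered directions and log2 ratios as deposited, except where they are stated to be set to 100. Folds with a signal below the floor were given as bounds.

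Of the 33 members, 26 were dimmer with GW9662 and 7 were brighter. Among the 8009 named genes whose mean signal was 100 or above, a threshold that all 33 members passed, 47.1% were dimmer and 52.9% were brighter. The median log2 ratio was -0.28 over the members and 0.03 over the 8009 genes. A total of 15 members were lower by more than the probe set SD of 0.36 and 0 were higher by more than it, against 18.4% lower and 18.2% higher among the 8009 genes. The other 18 members lay within this SD. With signals below 100 set to 100, 14 members were lower by more than the SD and 0 higher, against 18.1% lower and 18% higher among the genes, and the member lost was Mvk. At the thresholds of the study's methods, 3-fold or more and a signal reaching 300 on at least 1 array, 0 members were lower (2.02% of the 8009 genes) and 0 were higher (0.162%). At 2-fold, 1 member was lower (3.53% of the genes) and 0 were higher (0.774%). At 1.5-fold, Fdft1, Msmo1, Sc5d and Lipa were lower (7.4% of the genes) and 0 members were higher (4.84%). Another 10 members had signals under 300 on both arrays and could not be counted at these thresholds. With the minimum lowered to 100, Mvd, Cyp51 and Tm7sf2 were added, for 7 members at least 1.5-fold lower (10.6% of the genes) and 0 higher (6.57%). The shares of genes are given to be read beside the counts, since the members were not drawn at random and genes are not replicates.

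**Figure D2:**
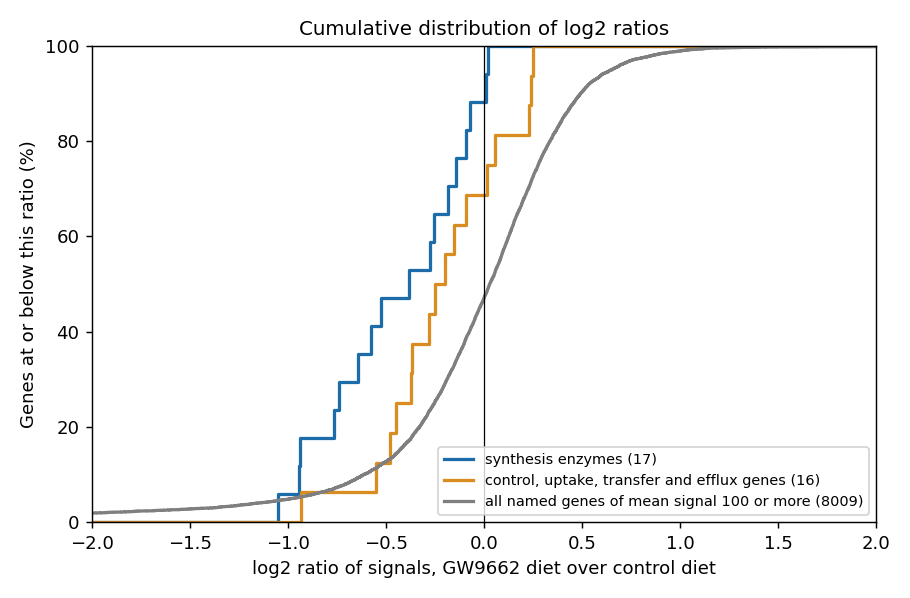
Cumulative distribution of log2 ratios of GW9662 over control, with the ratio on the x axis and the percentage of genes at or below it on the y axis, for the 17 synthesis enzymes, the 16 other members and the 8009 named genes of mean signal 100 or more. The curve of the synthesis enzymes lies to the left of that of all genes over most of its course, and it ends near 0, while the low tail of all genes reaches further down than any member.

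The promoters of Msmo1, Sc5d and Mvd, which had the lowest log2 ratios of deposited signals among synthesis enzymes (Mvd on dim probe sets, and not once signals below 100 were set to 100), and of Hmgcs1 are shown because SREBP2 acts with the factors NF-Y and Sp1 at promoters of sterol genes. The windows run from 250 bases before to 50 bases after the transcript start, are from RefSeq on GRCm38.p6, and are written in the direction of transcription. Capitals mark the NF-Y box CCAAT in either orientation (CCAAT or ATTGG) and, in Hmgcs1, a match to the sterol element TCACNCCAC.
Msmo1, chr8:64733529-64733828, minus strand: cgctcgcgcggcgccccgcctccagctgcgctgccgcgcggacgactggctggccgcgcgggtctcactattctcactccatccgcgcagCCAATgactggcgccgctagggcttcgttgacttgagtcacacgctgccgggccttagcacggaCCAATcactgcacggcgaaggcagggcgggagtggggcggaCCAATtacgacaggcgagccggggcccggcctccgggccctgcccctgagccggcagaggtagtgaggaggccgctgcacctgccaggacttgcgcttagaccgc
Sc5d, chr9:42264251-42264550, minus strand: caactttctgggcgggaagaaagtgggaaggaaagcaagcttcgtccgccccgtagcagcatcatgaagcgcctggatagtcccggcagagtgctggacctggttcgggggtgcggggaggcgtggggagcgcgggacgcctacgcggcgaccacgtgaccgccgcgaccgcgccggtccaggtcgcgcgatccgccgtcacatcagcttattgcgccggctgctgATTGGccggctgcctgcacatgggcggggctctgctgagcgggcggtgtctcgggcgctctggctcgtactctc
Mvd, chr8:122443373-122443672, minus strand: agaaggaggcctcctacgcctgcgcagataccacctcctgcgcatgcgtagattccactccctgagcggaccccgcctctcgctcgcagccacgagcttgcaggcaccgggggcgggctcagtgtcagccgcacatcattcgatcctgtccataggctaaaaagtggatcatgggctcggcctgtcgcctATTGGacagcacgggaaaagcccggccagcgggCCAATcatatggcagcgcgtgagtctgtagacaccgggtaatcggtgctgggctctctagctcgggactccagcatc
Hmgcs1, chr13:119690101-119690400, plus strand: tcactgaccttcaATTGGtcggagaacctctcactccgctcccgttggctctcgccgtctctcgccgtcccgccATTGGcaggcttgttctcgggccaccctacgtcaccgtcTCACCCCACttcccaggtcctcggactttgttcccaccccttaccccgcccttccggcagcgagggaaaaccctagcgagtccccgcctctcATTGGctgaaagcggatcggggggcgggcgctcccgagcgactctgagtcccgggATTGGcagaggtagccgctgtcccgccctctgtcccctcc

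The Hmgcs1 window held 4 CCAAT boxes and the only match to TCACNCCAC among the members, a motif found in 1.24% of all 32851 promoter windows. Msmo1 held 3 CCAAT boxes, Mvd held 2 and Sc5d held 1. Of other members within the SD, Insig2 and Hsd17b7 held 3 in a window, and Ebp, Dhcr7 and Npc2 held 2. Pmvk, Lss, Srebf2 and Vldlr held 1, and Scap and Apoe held 0. Of other members lower by more than the SD, Mvk and Osbp held 5, Nsdhl held 4 and Idi1 held 2. Cyp51, Tm7sf2, Lipa and Pltp held 1, and Lrp1 and Abca1 held 0. A link between the number of boxes and the log2 ratio was not tested. Of the 33 measured members, 25 had a window, and 21 of the 25 had a CCAAT box in at least 1 window. The same was true of 43% of the 6498 genes of mean signal 100 or more that had a window. Counted by window, since some genes have several starts, 61.8% of 34 member windows and 37.4% of all windows held the box. The Sp1 motif GGGCGG was found in 23 of the 25 members and in 71.4% of the 6498 genes. Both strands were searched, and matches of different motifs did not overlap in the member windows. The LXR element, searched as AGGTCA repeated after a gap of 4 bases, was in 0 member windows and in 0.0152% of all windows. The PPAR element, searched as the same repeat with a gap of 1 base, was in 0 member windows and in 0.0396% of all windows. Exact matches to these repeats are so rare that 0 was the likely result for any list of this size. These searches therefore cannot show whether members hold looser or more distant elements. The study marks Lipa as containing a PPAR element. Fdps, Fdft1, Sqle, Scarb1, Npc1, Stard4, Abcg1 and Apoc1 had no window. A match of letters is a description and does not show binding.

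The early enzymes among the measured members, which do not cover every step from acetyl-CoA to squalene, had a median log2 ratio of -0.38. Of these, 6 of 7 were lower and 4 were lower by more than 0.36. With signals below 100 set to 100 the median was -0.27 and 3 were lower by more than 0.36, namely Mvd, Idi1 and Fdft1. Of the 8009 genes, 47.1% were lower and 18.4% were lower by more than 0.36, or 18.1% with signals below 100 set to 100. Fdft1, squalene synthase, which commits farnesyl units to sterols, had signals of 890 with GW9662 and 1390 in control, 1.56-fold lower. A second Fdft1 probe set gave nearly the same ratio, at 408 with GW9662 and 637 in control. Both Fdft1 probe sets were thus lower by more than 0.36, but they read the same RNA pools. The remaining Fdft1 probe sets had signals below 10 on both arrays. Mvd, which decarboxylates mevalonate diphosphate to isopentenyl diphosphate, was dim but lower at both of its probe sets. At the brighter it had 84.0 with GW9662 and 161.1 in control, at least 1.61-fold lower with the floor of 100. At the other it had 73.2 with GW9662 and 152.9 in control. Mvk, the kinase that phosphorylates mevalonate, was dim as well, at 80.9 with GW9662 and 120.8 in control, at least 1.21-fold lower, a bound that lies within the SD.

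Idi1, which isomerizes isopentenyl diphosphate, had 458 with GW9662 and 597 in control, a log2 ratio of -0.38, just outside the SD. Its dimmer probe set was nearly level, at 313 with GW9662 and 323 in control. Hmgcs1, the synthase that makes HMG-CoA and a classical SREBP2 target, differed among its 4 probe sets. At the brightest it had 1883 with GW9662 and 2250 in control, a log2 ratio of -0.26. Other probe sets had 1558 with GW9662 and 2069 in control, and 1726 with GW9662 and 1674.5 in control. The dimmest was the most different, at 180 with GW9662 and 369.5 in control, 2.05-fold lower. The direction of Hmgcs1 thus depended on the probe set, and its log2 ratios spanned 1.08. Pmvk, the kinase after Mvk, was close to level at 354 with GW9662 and 372 in control, and its sign turned with quantile normalization. Fdps, which makes farnesyl diphosphate, was level at 983 with GW9662 and 975.5 in control. The early steps were thus uneven, with enzymes close to level lying between enzymes with lower signals.

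The later enzymes, from squalene to cholesterol, had a median log2 ratio of -0.40, with 9 of 10 lower and 5 of them by more than 0.36. The matching shares of the 8009 genes were 47.1% and 18.4%. Msmo1 (-1.05) and Sc5d (-0.95) had the lowest log2 ratios of the list, followed by Tm7sf2 and Cyp51, both at -0.74 when signals below 100 were set to 100. Msmo1 oxidizes methyl groups of the sterol ring and had a single probe set. Sc5d, the sterol desaturase near the end of the pathway, had 343 with GW9662 and 662 in control, 1.93-fold lower. Tm7sf2, a sterol reductase that follows Cyp51, had 98.1 with GW9662 and 166.7 in control, at least 1.67-fold lower with the floor of 100. Cyp51, the lanosterol demethylase, had 171.9 with GW9662 and 287.3 in control, 1.67-fold lower, at its brighter probe set. Its other probe set above the floor was nearly level, at 121.3 with GW9662 and 129.1 in control, so that the difference at Cyp51 rests on 1 probe set. Nsdhl, which acts with Msmo1 to remove ring methyl groups, had 439.5 with GW9662 and 632 in control, 1.44-fold lower.

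The other later enzymes lay within the spread between probe sets at their brightest probe sets. Sqle, squalene epoxidase and a rate-limiting step, had 764 with GW9662 and 925 in control, a log2 ratio of -0.28. Lss, which closes the sterol ring, had 124.5 with GW9662 and 132.8 in control. Hsd17b7, a ketosteroid reductase of the demethylation complex, had 103.9 with GW9662 and 117.9 in control, and a dimmer probe set had 88.8 with GW9662 and 122.8 in control. Lss and Hsd17b7 changed sign with quantile normalization, so their place among the lower members did not hold under that setting. Dhcr7, the reductase of the last step, had 151.6 with GW9662 and 167.7 in control, and Ebp, a sterol isomerase, had 1361 with GW9662 and 1344 in control. Of the enzymes that remove ring methyl groups, Cyp51, Msmo1 and Nsdhl had log2 ratios below -0.36 at their brightest probe sets. For Cyp51 this held at that probe set alone, and Hsd17b7 had -0.18. The reductase Tm7sf2 was also below -0.36, on a dim probe set.

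**Figure D3:**
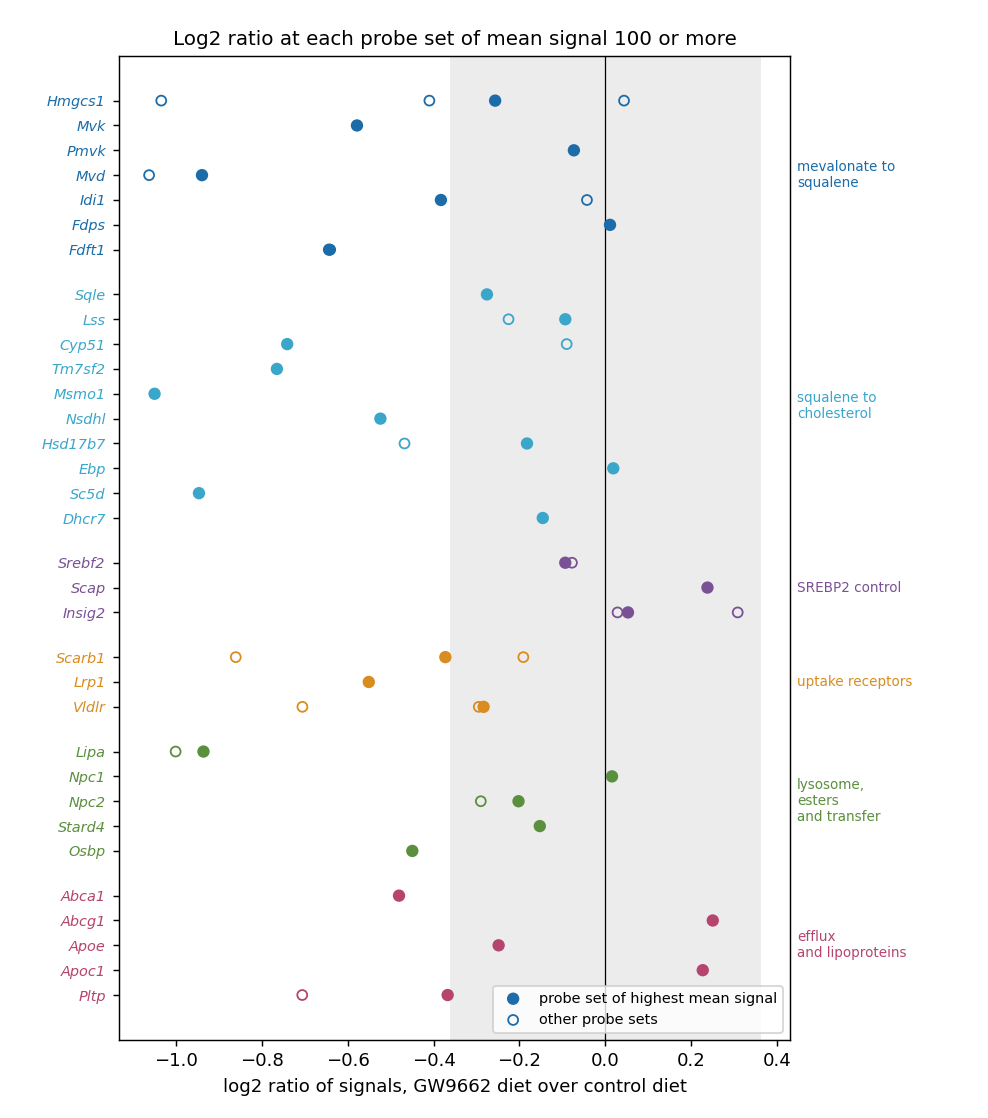
Log2 ratio of GW9662 over control at each probe set of mean signal 100 or more, with the ratio on the x axis and genes grouped by role on the y axis. Filled points are the brightest probe sets, open points are the other probe sets (the 2 of Fdft1 coincide), and the gray band is the SD of 0.36 between probe sets of a gene. Of 52 probe sets, 24 lie below the band and 0 lie above it.

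Across the members, 14 genes had 2 or more probe sets whose mean signal reached 100, and in 13 of them all these probe sets pointed one way, as in 57.9% of the 2639 genes with several. Hmgcs1 was the exception. Counting probe sets, 42 of 52 were lower with GW9662 and 10 were higher, against 49.5% lower and 50.5% higher among 11827 probe sets of the same signal. With signals below 100 set to 100, every such probe set was lower by more than 0.36 in 11 members (16.2% of the 8009 genes), of which Mvd, Fdft1, Lipa and Pltp had 2 such probe sets. In 10 of the 14 genes the dimmest of these probe sets had a lower log2 ratio than the brightest, as in 62.1% of the 2639 genes. Probe sets of a gene share the same 2 RNA pools and are not replicates of the diet.

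The regulators of SREBP2 did not differ beyond the spread between probe sets. Srebf2, which encodes SREBP2, had 270 with GW9662 and 288 in control, a log2 ratio of -0.09, and its dimmer probe set gave -0.08. Scap had 1143 with GW9662 and 969 in control, 1.18-fold higher. Insig2, which retains Scap in the endoplasmic reticulum, had 861 with GW9662 and 830 in control. All 3 Insig2 probe sets were slightly higher, with log2 ratios between 0.03 and 0.31. The median of the 3 regulators was 0.05, close to the 0.03 of all genes. The arrays read transcripts, and processing of the SREBP2 protein was not measured.

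All 3 uptake receptors among the members had lower signals on the GW9662 array, as did 47.1% of the 8009 genes. The median log2 ratio of these receptors was -0.37, and the members do not include every lipoprotein receptor. Lrp1, an endocytic receptor for lipoprotein remnants and many other ligands, had 567 with GW9662 and 831 in control, 1.47-fold lower. Scarb1, the receptor for high density lipoprotein, had 773.5 with GW9662 and 1001 in control at its brightest probe set, 1.29-fold lower. At its dimmest, Scarb1 had 340 with GW9662 and 618 in control, 1.82-fold lower. Scarb1 was thus lower at each of its probe sets by differing amounts. Vldlr, which binds triglyceride-rich lipoproteins, had 1024 with GW9662 and 1246 in control, within the SD, and a dimmer probe set had 93.7 with GW9662 and 152.8 in control.

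Of the genes that handle sterols inside the cell, Lipa differed most. Lipa, lysosomal acid lipase, frees cholesterol from esters that enter the lysosome. It had 558 with GW9662 and 1067 in control, 1.91-fold lower, and a dimmer probe set had 82.2 with GW9662 and 164.5 in control. The study lists Lipa among the metabolic genes lowered on these same arrays, so its direction is not independent evidence, and the probe set read there is not given in the sources used here. Osbp, which exchanges sterols between the endoplasmic reticulum and the Golgi, had 493 with GW9662 and 673 in control, 1.37-fold lower. Npc1 and Npc2 pass cholesterol out of the lysosome. Npc1 was level at 193.7 with GW9662 and 191.6 in control. Npc2 had 4627 with GW9662 and 5322 in control, a log2 ratio of -0.20, within the SD. Stard4, a soluble sterol carrier, had 109.4 with GW9662 and 121.6 in control and changed sign with quantile normalization. The lysosomal lipase thus had a lower signal while the lysosomal export proteins stayed within the spread between probe sets.

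Efflux and lipoprotein genes were mixed, with 3 of 5 lower (47.1% of the 8009 genes), 2 higher (52.9%) and a median log2 ratio of -0.25. Abca1, the transporter that loads cholesterol onto lipid-poor apolipoproteins, had 1646 with GW9662 and 2296 in control, 1.40-fold lower. Abcg1, which exports sterol to mature particles, had 638 with GW9662 and 536 in control, 1.19-fold higher and within the SD. These LXR targets lay on opposite sides of 0, Abca1 outside the SD. The apolipoprotein genes also lay on opposite sides, both within the SD. Apoe had 6719 with GW9662 and 7981 in control, and Apoc1, its neighbour in the mouse genome, had 5031 with GW9662 and 4298 in control. Pltp, which transfers phospholipid between lipoproteins, had 1347 with GW9662 and 1738 in control, a log2 ratio of -0.37, and its dimmer probe set had 224 with GW9662 and 366 in control.

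Other genes of the pathway, from a list of 52 genes outside the members, held no gene that met the 2-fold count. Of these, 36 were named on the array, and the 21 with a mean signal of at least 100 had a median log2 ratio of -0.19. Of the 21, 16 were lower (47.1% of the 8009 genes) and 5 were higher (52.9%). By the 2-fold count used for the members, 0 of the 21 were lower (3.53% of the 8009 genes) and 0 were higher (0.774%). The 15 dimmer genes could not be counted. The following were chosen after their values were seen. Srebf1, which encodes the SREBP1 factor of fatty acid synthesis, had 1801 with GW9662 and 3532 in control, 1.96-fold lower, whereas Srebf2 was close to level. Cav1, the caveolar protein that binds cholesterol and is abundant in fat and endothelium, had 3014 with GW9662 and 5233 in control, 1.74-fold lower. Mylip, the ligase that degrades lipoprotein receptors and an LXR target, had 885 with GW9662 and 1273 in control, 1.44-fold lower. Nr1h3, the LXR receptor of macrophages, liver and fat, was dim, at 59.6 with GW9662 and 126.2 in control at its only probe set here, at least 1.26-fold lower. The study lists Nr1h3 as well, without naming a probe set. Stard3, an endosomal sterol transporter, had 548 with GW9662 and 394 in control, 1.39-fold higher, and Osbpl9, an OSBP relative, had 2715 with GW9662 and 2051 in control, 1.32-fold higher. All 10 named genes of the list for LXR and plasma lipoproteins had a mean signal under 100.

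Markers of fat and muscle were lower on the GW9662 array, by far more than any sterol gene. All 9 adipocyte markers on the array were dimmer with GW9662, with a summed signal of 4298 with GW9662 and 42124 in control and a median log2 ratio of -4.53. Of the 3 brightest, Fabp4 had 3097 with GW9662 and 13670 in control, Adipoq had 418 with GW9662 and 9668 in control, and Thrsp had 348 with GW9662 and 7235 in control. All 9 skeletal muscle markers of mean signal 100 or more were dimmer, and the 10 on the array had a summed signal of 1175 with GW9662 and 10902 in control. Endothelial markers (6 of 6 of mean signal 100 or more dimmer) summed to 2146 with GW9662 and 3592 in control, fibroblast markers (5 of 6) to 20890 with GW9662 and 28919 in control, and basal epithelial markers (5 of 7) to 13733 with GW9662 and 15555 in control. Luminal epithelial markers were present and nearly level, at a summed 43616 with GW9662 and 42140 in control. Among them, Krt8 had 9665 with GW9662 and 9496 in control. The 12 macrophage markers summed to 19895 with GW9662 and 21170 in control, and the 10 of mean signal 100 or more had log2 ratios between -0.44 and 0.27. Lymphocyte markers had mean signals under 100, as did 5 of 6 hepatocyte markers, the other being fibrinogen beta (Fgb, 277 with GW9662 and 3190 in control). No marker had a signal of 0. In pooled bulk tissue, fewer cells of a type and less RNA per cell cannot be told apart. The part of fat, muscle and stromal signal in the lower values of the sterol genes was not tested.

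**Figure D4:**
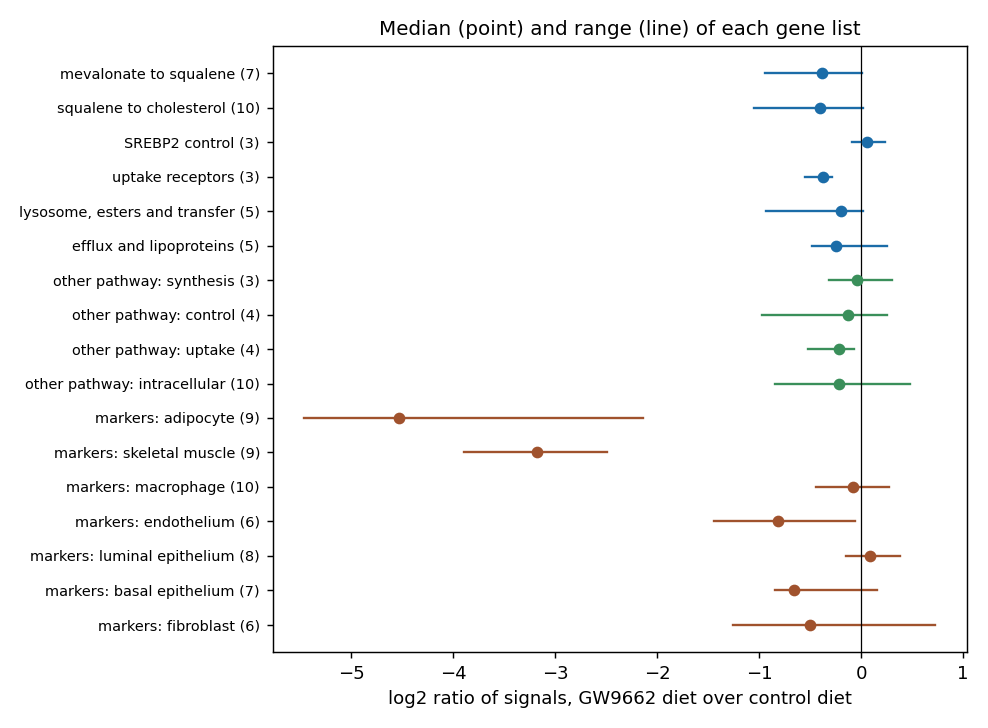
Median (point) and range (line) of the log2 ratio of GW9662 over control on the x axis, for each sterol gene role (blue), the other pathway genes (green) and cell type markers (brown) on the y axis, over the genes of mean signal 100 or more given in brackets. The sterol roles have medians between -0.40 and 0.05, the adipocyte markers a median of -4.53 and the luminal markers a median of 0.09.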

How the data were processed

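Biotin-labelled cRNA from pooled tumor RNA of 5 mice per diet was hybridized to 1 array each. For every probe set of an array the authors deposited a signal intensity on a linear scale, after raw data generation in Affymetrix GeneChip Operating Software. How probe pairs were combined and scaled is not given in the sources used here. Deposited signals reached 14841, and a mean trimmed by 2% at each end was 500.2 on either array, which is the form of scaling to a common target. No other scaling was applied.

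Gene names came from the platform annotation, updated by gene identifier to RefSeq symbols of GRCm38.p6. A single gene was named for 20380 of the 22690 probe sets. The others had several genes (691), no gene named here (1555) or were array controls (64). A log2 ratio used 0.1 in place of 0. A fold with 1 signal below 100 was given as a bound against 100, and none when both were below it. The spread between probe sets was the pooled SD of their log2 ratios within genes, over probe sets whose mean signal reached 100. Counting, probe set choice and the motif search were tested on simulated data. Every member is named. Other pathway genes were to be named at 2-fold with a signal of 300, and the 3 brightest genes were to be named of each marker list, which is done here for fat cells and given as sums elsewhere. Members, lists and thresholds were chosen with earlier results of these data known. Other settings covered centring, quantile normalization, signal minimums, a floor on low signals and the choice of probe set. Software was matplotlib 3.10.9, pandas 2.3.3 and numpy 2.4.6 under Python 3.11.15.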

Additional observations from a re-analysis of the deposited data

How the results depend on the processing

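No paired analysis was possible because each diet had 1 array, and no array could be left out. Over 252 combinations of a result and an alternative, 248 stayed within the probe set SD of 0.36 for log2 ratios, or within 1.5 times for counts. Many of these could hardly differ. Centring shifted each log2 ratio by only 0.01, 14 members had 1 probe set, and several counts were 0 throughout. A change of sign within 0.36 also counted as unchanged, so the 248 do not measure robustness. The count of members at least 2-fold lower, 1 as reported, was 0 with quantile normalization, where the log2 ratio of Msmo1 was -0.96, and 0 with a mean signal of at least 300 required, since that of Msmo1 was 298.6. The count at least 1.5-fold lower, 4 as reported, was 7 with a signal minimum of 100. The log2 ratio of Vldlr moved to -0.71 when probe sets without an s, x or a in their suffix were read first, and Pltp then took the place of Lipa among the 4 genes at 1.5-fold. The median log2 ratio of the members ranged from -0.37 to -0.26. Counts of members with any lower signal (22 to 26) and lower by more than the SD (13 to 17) were checked under alternatives chosen after seeing the data, and Pmvk, Lss, Hsd17b7 and Stard4 changed sign with quantile normalization. The 10 members under a signal of 300 on both arrays are the least certain, and nothing here measures error between mice.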
